A study of Mus musculus with 4 samples.

Results

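The 9 genes described here, Fdft1, Sqle, Lss, Cyp51, Msmo1, Nsdhl, Hsd17b7, Sc5d and Dhcr7, encode enzymes of the squalene and sterol arm of cholesterol synthesis. They were chosen by symbol, and all 9 were found among the 27998 genes counted. Nuclei came from hippocampi of B6 mice at 9 months, with 1 pooled library per genotype. The P301S/EKO library (7 hippocampi) carries both changes. The P301S library (8 hippocampi) comes from mice with a tau transgene that holds the P301S change, and the labels do not give its promoter. The EKO library (7 hippocampi) is read here as one from mice without a working Apoe gene, since the labels do not spell the name out, and the WT library (7 hippocampi) carries neither change. The other 2 genotypes of the study were not analysed here.

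Cholesterol in the adult brain is made in place, since lipoproteins of the blood do not cross the blood-brain barrier, and astrocytes pass part of theirs to neurons on particles that hold apolipoprotein E. After the mevalonate arm has made farnesyl diphosphate, squalene synthase (Fdft1) joins a pair of these molecules to squalene, squalene epoxidase (Sqle) oxidises it, and lanosterol synthase (Lss) folds it into the first sterol. Cyp51, Msmo1, Nsdhl and Hsd17b7 then remove methyl groups from the ring, and Sc5d and Dhcr7 act on its double bonds near the end of the path. Transcription of the path is driven by the membrane-bound factor encoded by Srebf2, which is held back when sterols are plentiful.

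With 1 library per genotype there is no replicate, no test between genotypes and no p-value. Levels are given in CPM, the UMIs of a gene in a class and library over the class's UMIs in that library, scaled to 1000000, and every interval is a 95% interval that holds counting error only. The files held 6767 barcodes for P301S/EKO, 3156 for P301S, 5982 for EKO and 6145 for WT, with 8369762 to 14251675 UMIs per library, and 5327, 2865, 5222 and 5263 nuclei were kept in that order. Median UMIs per barcode were 1394 in P301S/EKO, 2152.5 in P301S, 1443.5 in EKO and 1901 in WT, so both libraries without Apoe were shallower. Apoe itself stood at 295 CPM in P301S/EKO astrocyte-like nuclei, 29267 in P301S, 176 in EKO and 20200 in WT, so both libraries labelled EKO were low in it. Between 19 and 69 barcodes were shared by any pair of libraries.

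All 9 genes are protein coding and lie on 9 different chromosomes of mm10 (GENCODE). In the order of the path these are Fdft1 at chr14:63145150-63179578, Sqle at chr15:59315077-59331192, Lss at chr10:76531588-76557138, Cyp51 at chr5:4081145-4104746, Msmo1 at chr8:64718139-64733792, Nsdhl at chrX:72918557-72958514, Hsd17b7 at chr1:169949535-169969241, Sc5d at chr9:42251595-42264256 and Dhcr7 at chr7:143823145-143848410. The start regions of 4 are printed, those of Msmo1 and Cyp51 because their P301S intervals in neurons lay below those of the other libraries, and those of Lss and Dhcr7 because theirs differed little between P301S and WT. RefSeq promoter windows on GRCm38.p6 (mm10), from 250 bases before to 50 after a start, were found for 7 of the 9 genes, in 9 windows. Sequences run 5′ to 3′ on the gene's strand, and capitals mark matches on either strand to the motifs counted in the next paragraph. Msmo1 is on the minus strand at chr8:64733529-64733828, Cyp51 on the minus strand at chr5:4104648-4104947, Lss on the plus strand at chr10:76531355-76531654, and the third window of Dhcr7 on the plus strand at chr7:143829964-143830263.
Msmo1: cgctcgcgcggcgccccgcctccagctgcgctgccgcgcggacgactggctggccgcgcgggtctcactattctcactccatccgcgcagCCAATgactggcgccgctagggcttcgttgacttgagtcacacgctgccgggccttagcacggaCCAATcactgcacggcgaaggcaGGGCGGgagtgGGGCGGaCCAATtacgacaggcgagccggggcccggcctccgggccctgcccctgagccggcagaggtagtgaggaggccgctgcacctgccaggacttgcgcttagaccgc
Cyp51: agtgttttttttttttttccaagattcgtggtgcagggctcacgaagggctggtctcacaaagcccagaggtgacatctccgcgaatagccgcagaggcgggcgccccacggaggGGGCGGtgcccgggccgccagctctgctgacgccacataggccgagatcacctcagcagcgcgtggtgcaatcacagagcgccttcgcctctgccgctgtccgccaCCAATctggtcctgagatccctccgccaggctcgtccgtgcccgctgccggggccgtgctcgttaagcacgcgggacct
Lss: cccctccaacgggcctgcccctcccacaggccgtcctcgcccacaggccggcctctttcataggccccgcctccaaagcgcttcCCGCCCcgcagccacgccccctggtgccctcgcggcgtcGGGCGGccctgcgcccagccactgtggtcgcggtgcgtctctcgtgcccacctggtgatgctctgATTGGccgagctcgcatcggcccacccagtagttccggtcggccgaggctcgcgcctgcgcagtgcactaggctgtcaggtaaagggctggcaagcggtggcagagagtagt
Dhcr7: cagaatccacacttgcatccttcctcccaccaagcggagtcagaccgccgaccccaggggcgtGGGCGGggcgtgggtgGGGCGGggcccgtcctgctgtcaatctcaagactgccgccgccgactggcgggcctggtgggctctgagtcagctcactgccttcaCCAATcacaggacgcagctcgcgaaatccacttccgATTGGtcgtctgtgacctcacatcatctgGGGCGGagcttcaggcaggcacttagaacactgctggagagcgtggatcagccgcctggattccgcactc

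CCAAT, the letters read by the factor NF-Y, stood in 7 of these 9 windows and in at least 1 window of all 7 genes, against 37.41% of 32851 promoter windows. GGGCGG, a form read by Sp1, stood in 8 of 9 windows, against 35.66%. In Msmo1, CCAAT began at −160, −96 and −55 and GGGCGG at −73 and −62, counted from the start. CACGTG, an E-box, was in 3 of 9 windows, against 7.15%. TCACNCCAC, a form of the sterol regulatory element, was in 0 of 9 windows, against 1.24%. A match describes the letters only, and a missing match says nothing about the factor.

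The 9 genes together were highest in astrocyte-like nuclei in 3 of 4 libraries, all but P301S. Their summed level in these nuclei was 839 CPM in P301S/EKO (interval 730 to 959), 313 in P301S (249 to 388), 1353 in EKO (1204 to 1515) and 817 in WT (742 to 897). P301S stood alone at the low end, EKO alone at the high end, and P301S/EKO and WT had overlapping intervals. The next class in P301S/EKO and in EKO was the subicular or cortical excitatory neuron-like class, at 429 and 590 CPM, and in WT the oligodendrocyte precursor-like class, at 462. None of these 3 intervals reached that of the astrocyte-like nuclei. In P301S the unnamed neuronal cluster was highest, at 413 CPM (358 to 474), and its interval overlapped that of the astrocyte-like nuclei. Among classes with at least 50 nuclei in the library, dentate granule neuron-like nuclei were lowest in P301S/EKO, EKO and WT, at 259, 347 and 244 CPM. Endothelial cell-like nuclei were lowest in P301S, at 191. Choroid plexus epithelium-like nuclei (17 in P301S/EKO, 44 in P301S, 11 in WT, none in EKO) stood at 208, 248 and 216 CPM. These values rest on 5, 20 and 6 UMIs.

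**Figure D1:**
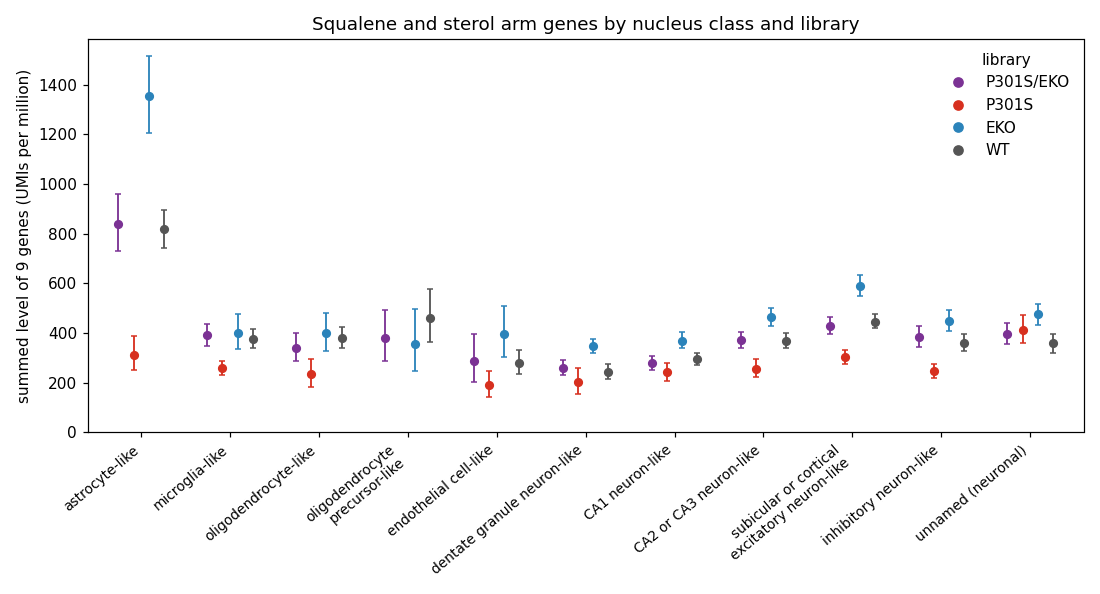
Summed level of the 9 genes (y axis, CPM) in each nucleus class with at least 50 nuclei (x axis) for the 4 libraries; points are pooled counts and bars are exact Poisson 95% intervals. The P301S point is the lowest of the libraries in 9 of 10 classes that it has, and the spread is widest in astrocyte-like nuclei, between 313 and 1353.

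Astrocyte-like nuclei exceeded neurons of the same library by a ratio of 2.39 (2.07 to 2.75) in P301S/EKO, 1.12 (0.890 to 1.40) in P301S, 3.05 (2.70 to 3.44) in EKO and 2.30 (2.08 to 2.55) in WT. The ratio was above 1 in 4 of 4 libraries, with an interval above 1 in 3. A two-sided exact sign permutation over 4 libraries cannot go below p = 0.125, so no test was made. Msmo1 had an interval above 1 in 4 of 4 libraries, with ratios of 4.16, 2.40, 4.81 and 3.14 in P301S/EKO, P301S, EKO and WT. Fdft1 was 1.88 times its neuronal level in P301S/EKO astrocyte-like nuclei, 1.90 times in EKO and 1.41 times in WT, but 0.27 times (0.09 to 0.64) in P301S. Dhcr7 lay on both sides of 1, with ratios of 0.97, 0.48, 1.18 and 1.78 in the same order of libraries. Lss had ratios of 0.28, 0, 2.93 and 0.89 in that order, from at most 9 UMIs per library in astrocyte-like nuclei. Sqle, Cyp51, Nsdhl, Hsd17b7 and Sc5d lay above 1 in 4 of 4 libraries. Msmo1 made up 48.4%, 45.8%, 46.5% and 37.2% of the summed level in astrocyte-like nuclei, again in that order.

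In astrocyte-like nuclei the P301S library had the lowest value of each of the 9 genes. Of the 9 genes, 6 reached 20 UMIs over the P301S and WT libraries, and 6 of these 6 were at least 1.5-fold lower in P301S, against 16.8% of 6292 genes lower by as much. Their median log2 ratio was −1.48, against 0.10 for all genes that reached 20 UMIs. Genes that pass such a minimum through their level in 1 library are bound to differ. These counts, and those of the other comparisons and classes, therefore describe the counts read and no more. The other members, Lss, Nsdhl and Hsd17b7, did not reach the minimum. The sum over all 9 genes, which needs no minimum, gave a ratio of 0.383 (0.299 to 0.485), from 83 UMIs in P301S and 436 in WT. With the estimated free RNA of each library subtracted, the ratio was 0.237, given without an interval because the error of the subtraction was not estimated.

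Fdft1, the entry to the arm, had 94.5 CPM in P301S/EKO, 18.8 in P301S, 127 in EKO and 80.5 in WT astrocyte-like nuclei. The P301S value rests on 5 UMIs, and its ratio to WT was 0.23 (0.07 to 0.59). Sqle, a rate-limiting oxidation of the arm, had 106, 45.2, 258 and 174 CPM in P301S/EKO, P301S, EKO and WT. It was low in both libraries with the transgene, with ratios of 0.26 (0.13 to 0.48) in P301S over WT and 0.41 (0.25 to 0.66) in P301S/EKO over EKO. Lss, which closes the rings, was read 1 time in P301S/EKO, 0 times in P301S, 9 times in EKO and 7 times in WT. The upper limit of its P301S over WT ratio was 1.40, so no difference was detectable at this depth. Its P301S/EKO over EKO ratio was 0.097 (0.0022 to 0.698) and its EKO over WT ratio 3.11 (1.03 to 9.81), both from fewer than 20 UMIs.

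Among the demethylating enzymes, Msmo1, which oxidises methyl groups of the ring, held the most UMIs. It had 406 CPM in P301S/EKO, 143 in P301S, 629 in EKO and 303 in WT astrocyte-like nuclei, with intervals of 331 to 492, 101 to 197, 529 to 743 and 259 to 354. Its 4 libraries thus lay in the order P301S, WT, P301S/EKO, EKO, and the intervals of WT and P301S/EKO overlapped. Cyp51, the demethylase that acts first, had 63.0, 30.2, 99.5 and 63.7 CPM in P301S/EKO, P301S, EKO and WT, and its ratio of 0.47 in P301S over WT had an interval (0.19 to 1.04) that takes in 1. Nsdhl and Hsd17b7, the dehydrogenase and reductase of the same step, were read 2 times each in P301S and at most 12 times in any library. Their P301S over WT ratios were 0.34 (0.04 to 1.51) and 0.45 (0.05 to 2.16).

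At the end of the arm, Sc5d, a desaturase, had 66.9 CPM in P301S/EKO, 41.5 in P301S, 76.9 in EKO and 69.3 in WT astrocyte-like nuclei. Its intervals overlapped in all 4 libraries. Dhcr7, the last reductase, had 39.4, 18.8, 63.3 and 73.0 CPM in P301S/EKO, P301S, EKO and WT, with a P301S over WT ratio of 0.26 (0.08 to 0.66). Unlike Msmo1 and Sqle it was no higher in EKO than in WT, with a ratio of 0.87 (0.435 to 1.63).

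**Figure D2:**
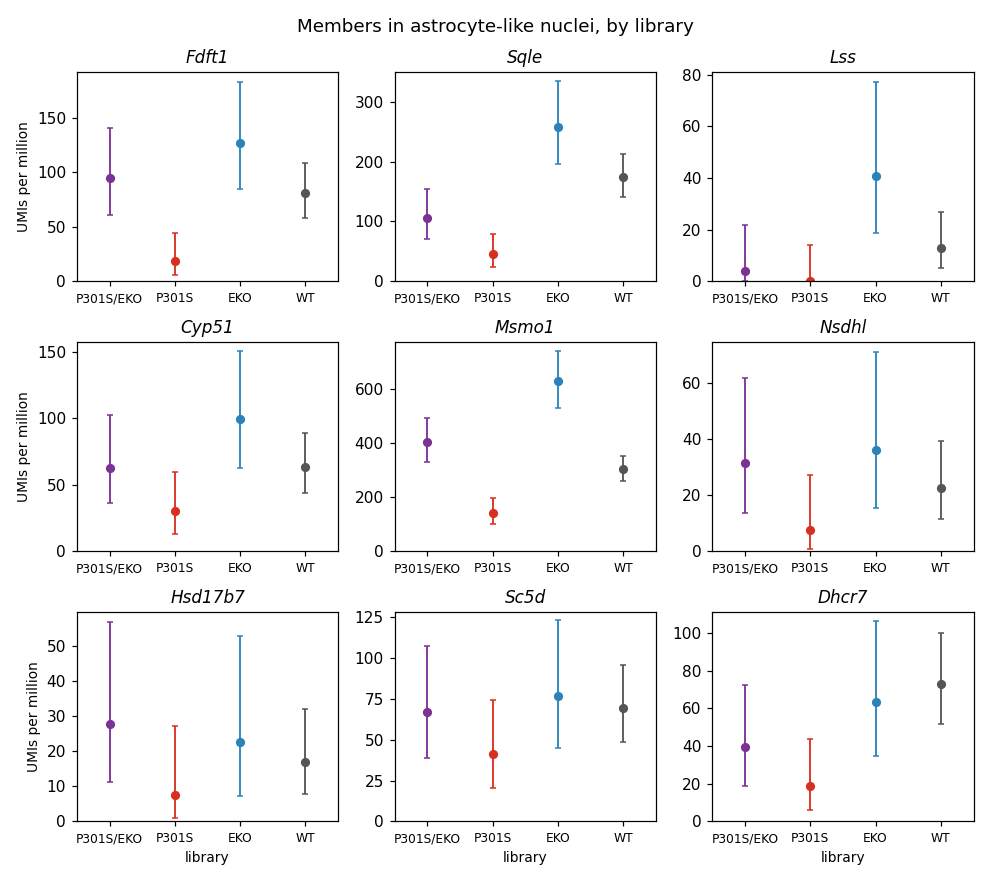
Level of each member (y axis, CPM, own scale per panel) in astrocyte-like nuclei of the 4 libraries (x axis); bars are exact Poisson 95% intervals. P301S is the lowest library in all 9 panels, and the P301S interval of Msmo1, up to 197, lies below those of the other libraries.

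The same contrast without Apoe, P301S/EKO over EKO, uses neither of those libraries. The sum over all 9 genes had a ratio of 0.62 (0.52 to 0.74), from 213 and 299 UMIs. Of 6 members with 20 UMIs, 4 were at least 1.5-fold lower in P301S/EKO (Sqle, Cyp51, Msmo1 and Dhcr7), against 15.6% of 4122 genes, and intervals below 1 were those of Sqle and Msmo1 (ratio 0.645, 0.495 to 0.838). Nsdhl, Hsd17b7 and Lss did not reach the minimum. Fdft1 and Sc5d had ratios of 0.75 (0.41 to 1.34) and 0.87 (0.42 to 1.81). The count of 4 became 2 with at least 1100 UMIs per nucleus or equal weight per nucleus, and 1 without nuclei that hold much neuronal RNA.

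Loss of Apoe went with higher levels in astrocyte-like nuclei, with and without the transgene. In P301S/EKO over P301S the sum had a ratio of 2.68 (2.07 to 3.5), and 5 of 5 members with 20 UMIs were at least 1.5-fold higher, against 13.3% of 4595 genes. Lss, Nsdhl, Hsd17b7 and Dhcr7 did not reach the minimum. Fdft1 (24 UMIs in P301S/EKO, 5 in P301S) and Sqle (27 and 12) passed it through P301S/EKO, so this count describes the counts read and no more. Fdft1 had a ratio of 5.01 (1.88 to 16.8), Msmo1 2.83 (1.93 to 4.22) and Sqle 2.35 (1.15 to 5.09), while the intervals of Cyp51 (ratio 2.09) and Sc5d (1.61) took in 1. In EKO over WT the sum had a ratio of 1.66 (1.43 to 1.92), and 4 of 7 members were at least 1.5-fold higher, against 15.3% of 5800 genes. Those 4 were Msmo1, at 2.07 (1.64 to 2.62), Fdft1, Cyp51 and Nsdhl, and the last 3 had intervals that took in 1. Lss and Hsd17b7 did not reach the minimum. Sqle, at 1.48 (1.05 to 2.08), was just short of the fold. Without Msmo1 the EKO over WT ratio of the sum was 1.41 (1.15 to 1.72), and the count of 4 became 1 with equal weight per nucleus and 2 without mixed nuclei. With free RNA subtracted, the EKO over WT ratio of the whole sum fell below 1.43, the lower limit given above, and the count became 2. P301S over WT and P301S/EKO over P301S share the P301S library, and each library stands in 2 of the 4 comparisons.

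RNA of other cells in the astrocyte-like nuclei differed between libraries. All 11 astrocyte markers were counted and summed to 16024 CPM in P301S/EKO, 15065 in P301S, 13556 in EKO and 8933 in WT. Summed transcripts of 10 neuronal genes stood at 7486 CPM in P301S/EKO, 9181 in P301S, 6787 in EKO and 16878 in WT, with none of the 10 at 0. From neuronal transcripts, a share of the RNA of these nuclei was estimated to be like that of the whole library. It was 31.6% in P301S/EKO, 31.9% in P301S, 40.4% in EKO and 61.6% in WT. Microglial markers summed to 477, 743, 267 and 262 CPM in P301S/EKO, P301S, EKO and WT, and 1 of 11, Cx3cr1, was at 0 in EKO. Oligodendrocyte markers, none of the 11 at 0, summed to 3883, 2853, 1647 and 2893 CPM in the same libraries. Choroid plexus markers summed to 1288 CPM in P301S/EKO, 1406 in P301S, 18.1 in EKO and 384 in WT, with 1, 2, 4 and 5 of 7 at 0. These were higher in both libraries with the transgene. Without nuclei that held more than 50% of the neuronal share of CA1 neuron-like nuclei (7, 10, 1 and 57 nuclei), the P301S over WT ratio of the sum was 0.34 (0.26 to 0.44) and the P301S/EKO over P301S ratio 2.92 (2.21 to 3.89). The EKO over WT ratio was then 1.51 (1.29 to 1.77) and the P301S/EKO over EKO ratio 0.65 (0.55 to 0.78). These last ratios were weaker than with all nuclei. The 18 reactive astrocyte genes summed to 4044 CPM in P301S/EKO, 6438 in P301S, 1475 in EKO and 820 in WT, and 8 of the 8 that reached 20 UMIs were at least 1.5-fold higher in P301S than in WT, against 23.3% of all genes measured. Of 78 ribosomal protein genes with 20 UMIs, 25 were higher and 0 lower by that fold, against 23.3% and 16.8% of all genes. The part of these differences in the sterol levels was not tested.

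In neurons the summed levels of the libraries lay closer together than in astrocyte-like nuclei. The 9 genes summed to 351 CPM in P301S/EKO (338 to 365), 278 in P301S (264 to 293), 443 in EKO (429 to 458) and 354 in WT (342 to 367). P301S was again alone at the low end and EKO alone at the high end. The ratios were 0.79 (0.74 to 0.84) in P301S over WT, 0.79 (0.75 to 0.83) in P301S/EKO over EKO, 1.25 (1.19 to 1.31) in EKO over WT and 1.26 (1.18 to 1.35) in P301S/EKO over P301S. The median gene of P301S neurons was itself 0.21 higher than in WT on the log2 scale. With median-of-ratios scaling, which moves all P301S over WT ratios of neurons by −0.23 on the log2 scale, the sum had a ratio of 0.67 (0.63 to 0.71) in P301S over WT and 1.47 (1.38 to 1.57) in P301S/EKO over P301S.

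Sqle had 60.6 CPM in P301S/EKO, 32.3 in P301S, 78.4 in EKO and 59.3 in WT neurons. Msmo1 had 97.6 CPM in P301S/EKO, 59.6 in P301S, 131 in EKO and 96.7 in WT neurons. Cyp51 had 42.1, 26.0, 49.9 and 37.0 CPM in P301S/EKO, P301S, EKO and WT. All 3 were lowest in P301S and highest in EKO, with P301S intervals below the others. Of 9 members, 3 were at least 1.5-fold lower in P301S than in WT neurons, against 2.57% of 13579 genes: Sqle (ratio 0.54, 0.45 to 0.65), Nsdhl (0.56, 0.33 to 0.93) and Msmo1 (0.62, 0.54 to 0.70). Under median-of-ratios scaling 5 members were lower by that fold, Cyp51 (0.598) and Hsd17b7 (0.661) among them. In P301S/EKO over P301S, 4 of 9 were at least 1.5-fold higher, against 2.62% of 13330 genes: Sqle (1.88, 1.56 to 2.26), Nsdhl (1.74, 1.03 to 3.04), Msmo1 (1.64, 1.43 to 1.88) and Cyp51 (1.62, 1.32 to 2.00). Levels of Lss lay between 13.9 and 15.1 CPM in the 4 libraries, with overlapping intervals, and those of Hsd17b7 between 6.74 and 8.71. Dhcr7 had 40.5 CPM in P301S/EKO, 39.6 in P301S, 53.9 in EKO and 41.1 in WT, and its P301S over WT ratio was 0.96 (0.81 to 1.15), or 0.823 (0.690 to 0.980) under median-of-ratios scaling. Sc5d had a P301S over WT ratio of 0.79 (0.64 to 0.98). The intervals of Fdft1, Sqle, Cyp51, Msmo1 and Dhcr7 lay below 1 in P301S/EKO over EKO, with ratios of 0.746 to 0.842, and in EKO over WT those of the same genes lay above 1, with ratios of 1.16 to 1.35.

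Sqle was below 1 in P301S over WT in 6 of 6 neuronal classes, with ratios of 0.40 to 0.91 and intervals below 1 in 4. In P301S/EKO over P301S it lay above 1 in 6 of 6, with ratios of 1.69 to 2.83 and intervals above 1 in 5. Msmo1 was above 1 in EKO over WT in 6 of 6 classes, each with its interval above 1, and was below 1 in P301S over WT in 5 of 6. The exception was the unnamed neuronal cluster of 1560 nuclei, where Msmo1 had a ratio of 1.06 (0.75 to 1.48) and the sum one of 1.15 (0.97 to 1.38). Fewer dentate granule neuron-like nuclei were kept in P301S (158) than in P301S/EKO (1004), EKO (1356) or WT (662). The summed level of the 9 genes is low in these nuclei. Their Fdft1 was not low, at 74.2 CPM in P301S/EKO, 97.9 in P301S, 88.5 in EKO and 69.5 in WT. Each of these Fdft1 values was above that of all neurons in the same library.

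**Figure D3:**
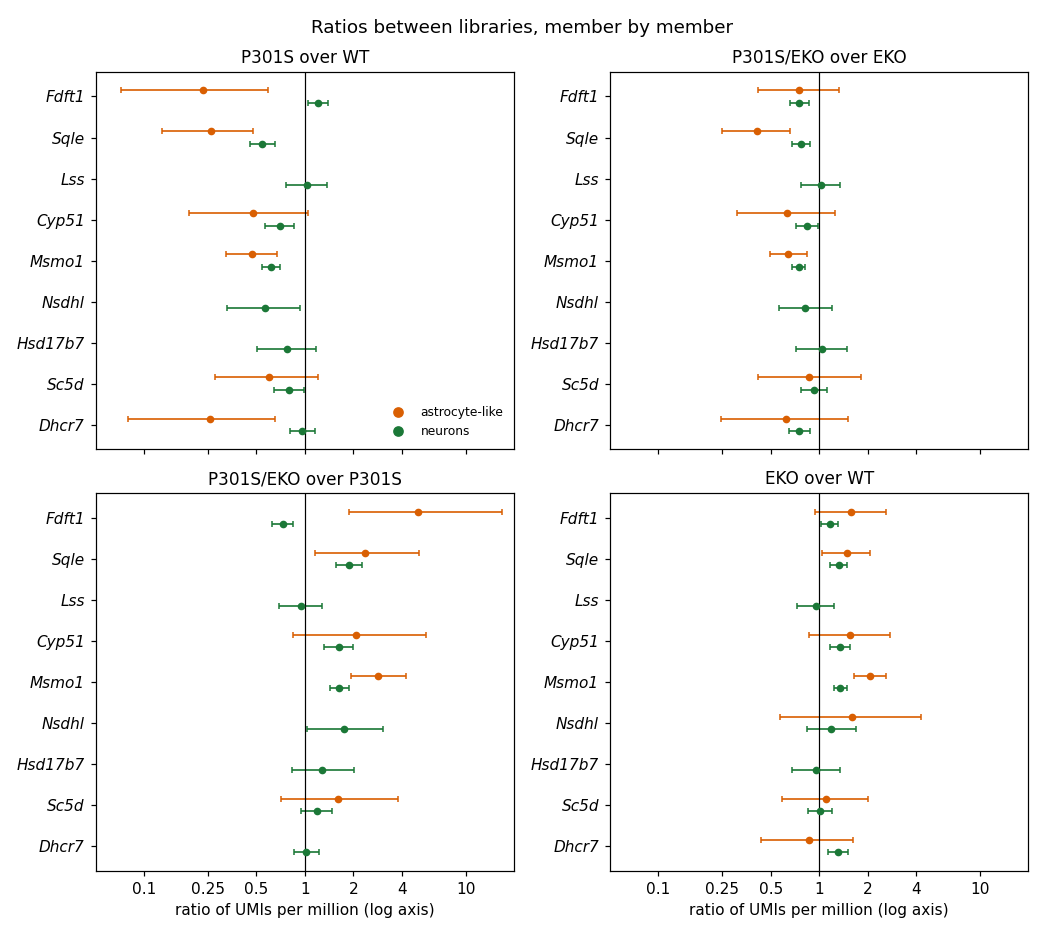
Ratio of CPM (x axis, log scale) for each member (y axis) in 4 comparisons of libraries, in astrocyte-like nuclei and in neurons; bars are exact conditional binomial 95% intervals, and members under 20 UMIs over the 2 libraries or without a count in one are left out. Fdft1 in P301S over WT lies at 0.23 in astrocyte-like nuclei and at 1.21 in neurons, which is 1.03 under median-of-ratios scaling.

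Fdft1 did not follow this order in neurons. It had 50.3 CPM in P301S/EKO, 69.2 in P301S, 66.7 in EKO and 57.3 in WT, so that P301S/EKO and not P301S was lowest. Its ratio was 1.21 (1.05 to 1.38) in P301S over WT and 0.73 (0.63 to 0.84) in P301S/EKO over P301S, against 0.54 and 1.88 for Sqle. With median-of-ratios scaling the P301S over WT value was 1.03 (0.90 to 1.18) and the P301S/EKO over P301S value 0.85 (0.73 to 0.99). P301S/EKO over P301S was below 1 in 6 of 6 neuronal classes, and the lowest ratio was that of inhibitory neuron-like nuclei, 0.54 (0.32 to 0.89), from 26.4 CPM in P301S/EKO and 48.8 in P301S. Fdft1 overlaps Ctsb, the gene of the protease cathepsin B on the opposite strand, and the sources used here do not say whether counting used the strand. Ctsb stood at 314 CPM in P301S/EKO neurons, 334 in P301S, 327 in EKO and 280 in WT. In astrocyte-like nuclei it had a P301S over WT ratio of 1.94 (1.59 to 2.37), against 0.23 for Fdft1. Cyp51 overlaps Akap9 in the same way, and Akap9 had a P301S over WT ratio of 1.27 (1.13 to 1.43) in neurons. Lss overlaps an antisense gene, 4930483K19Rik, that had 0 UMIs in neurons of all 4 libraries.

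**Figure D4:**
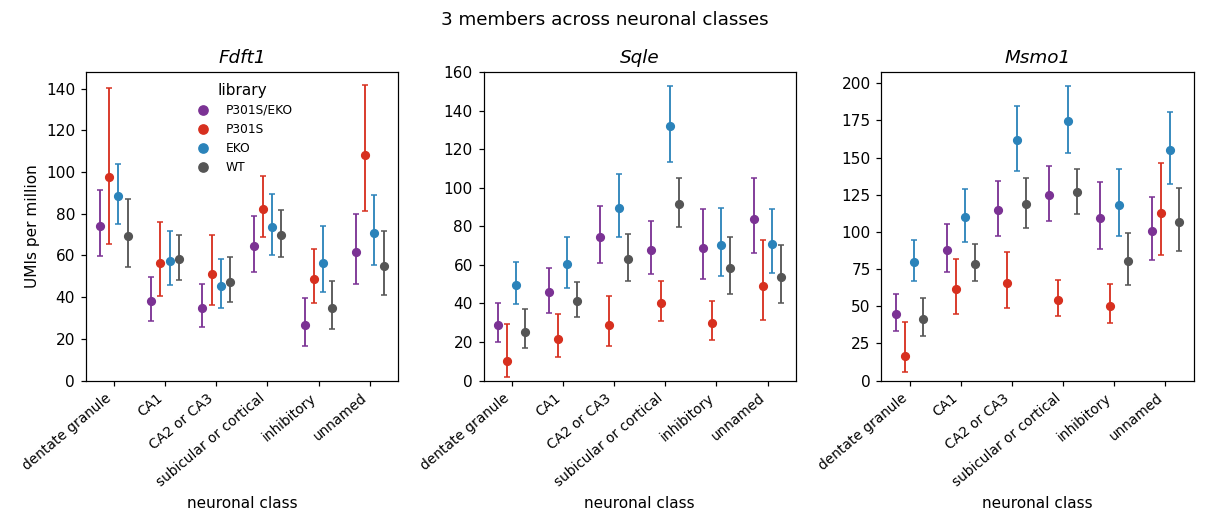
Levels of Fdft1, Sqle and Msmo1 (y axis, CPM) in 6 neuronal classes (x axis) of the 4 libraries; bars are exact Poisson 95% intervals. Sqle is lowest in P301S in all 6 classes, while the Fdft1 of P301S is above that of P301S/EKO in all 6; over all neurons that ratio of P301S/EKO to P301S is 0.73, and 0.85 under median-of-ratios scaling.

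The P301S library was also lowest in oligodendrocyte-like and microglia-like nuclei, and both classes held much neuronal RNA. The share of their RNA estimated, from neuronal transcripts, to be like that of the whole library was 87.6% in P301S/EKO, 87.7% in P301S and 95%, the cap of the estimate, in EKO and WT oligodendrocyte-like nuclei. In microglia-like nuclei it was 79.5% in P301S/EKO, 74.1% in P301S, 83.5% in EKO and 92.4% in WT. In oligodendrocyte-like nuclei, which build cholesterol-rich myelin, the sum was 341 CPM in P301S/EKO, 235 in P301S, 399 in EKO and 381 in WT. The ratios were 0.62 (0.47 to 0.80) in P301S over WT, 0.86 (0.66 to 1.11) in P301S/EKO over EKO, 1.04 (0.83 to 1.30) in EKO over WT and 1.45 (1.09 to 1.95) in P301S/EKO over P301S. Of 6 members, 4 were at least 1.5-fold lower in P301S than in WT, against 15.6% of 7192 genes, and Sqle had the one interval below 1 (ratio 0.32, 0.11 to 0.76). In P301S/EKO over P301S, 3 of 5 were at least 1.5-fold higher, against 13.3% of 5533 genes, each with an interval that took in 1. With free RNA subtracted, the P301S over WT ratio of the sum was 0.396, given without an interval. It rests on the small part of the UMIs left after the subtraction. Nsdhl was read 0 times in P301S/EKO and 8 times in EKO, with an upper limit of 0.368 on the ratio. Without mixed nuclei it was read 0 and 3 times, with an upper limit of 2.02. The 10 neuronal transcripts summed to 31954 CPM in P301S/EKO, 33477 in P301S, 31277 in EKO and 36303 in WT, against 49082 to 56118 in neurons. Mixed nuclei made up 48.45% of the class in P301S/EKO, 61.65% in P301S, 40.35% in EKO and 65.12% in WT. Without them the ratios were 0.50 (0.262 to 0.890) in P301S over WT and 2.15 (1.19 to 4.15) in P301S/EKO over P301S. Both rest on the same 14 UMIs from 51 P301S nuclei.

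In microglia-like nuclei the sum was 391 CPM in P301S/EKO, 259 in P301S, 401 in EKO and 376 in WT. P301S was alone at the low end and the other 3 overlapped. The P301S over WT ratio was 0.69 (0.59 to 0.80), with 3 of 7 members at least 1.5-fold lower (Sqle, Cyp51 and Dhcr7), against 8.62% of 10491 genes. In P301S/EKO over P301S it was 1.51 (1.30 to 1.76), and Sqle, Cyp51, Msmo1 and Dhcr7 were past 1.5-fold on the higher side, 4 of 7 members, against 6.88% of 10256 genes. The ratios of EKO over WT, 1.07 (0.87 to 1.30), and of P301S/EKO over EKO, 0.98 (0.79 to 1.21), took in 1. Mixed nuclei made up 52.0% of P301S/EKO, 64.6% of P301S, 42.1% of EKO and 78.4% of WT microglia-like nuclei. Without them the P301S/EKO over P301S ratio was 1.33 (0.948 to 1.87), which takes in 1, and WT kept too few nuclei for a value. With free RNA subtracted the ratios, given without intervals, were 0.793 in P301S over WT, 1.55 in P301S/EKO over EKO, 1.075 in EKO over WT and 2.11 in P301S/EKO over P301S.

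Neighbouring genes of the path gave their own counts in astrocyte-like nuclei. In the mevalonate arm, which feeds Fdft1, 4 of 5 genes with 20 UMIs were at least 1.5-fold lower in P301S than in WT (16.8% of all genes), with a median log2 ratio of −1.15, and 3 of 4 were at least 1.5-fold higher in P301S/EKO than in P301S (13.3%). Fdps, which makes farnesyl diphosphate, had a P301S over WT ratio of 0.36 (0.17 to 0.68). Of 9 genes of sterol sensing and uptake, 2 were higher and 2 lower in P301S than in WT by the same fold, against 23.3% and 16.8% of all genes. Insig1, which retains the Srebf2 product in the endoplasmic reticulum, had a ratio of 0.38 (0.18 to 0.71). Of 12 genes of the liver X receptor and of sterol efflux, 6 were higher and 0 lower in P301S, against the same shares, and Abca1, the sterol exporter, had a ratio of 6.29 (3.93 to 10.4). In P301S/EKO over P301S, 5 of 11 of these were lower, against 18% of all genes, Abca1 at 0.54 (0.36 to 0.81). Apoe is on this list and among the 5, and its place there was fixed by the genotype as read here. Among fatty acid synthesis genes 3 of 8 were lower in P301S, against 16.8% of all genes, with Acss2, which makes acetyl-CoA from acetate, at 0.38 (0.16 to 0.78).

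Across 43 sums of a class in a library, Sqle, Msmo1 and Cyp51 followed the mean of the 9 members most closely among 8328 genes, with Pearson's r of 0.89, 0.88 and 0.79 on log2(CPM + 5). Each member is part of that mean. The other measured members ranked lower, at 0.64 for Sc5d, 0.58 for Dhcr7, 0.51 for Lss and 0.42 for Fdft1, and Nsdhl and Hsd17b7 had under 500 UMIs. Among the genes outside the 9 with the highest values were Insig1 (0.70), Adrbk2 (0.69), Nadk (0.68), Hmgcs1 (0.68), Tmem246 (0.67), Slc33a1 (0.63) and Gm3764 (0.62). These sums share libraries, depth and free RNA, so the values only describe likeness.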

How the data were processed

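Nuclei from pooled hippocampi were counted with a droplet 3′ assay, 1 library per genotype, per the labels. The deposited matrices hold the authors' whole UMI counts per gene and barcode; the submitters' processing notes name Cell Ranger, Seurat and mm10 with no versions, and the sources used here do not say how strand and introns were treated. The genes, the lists and the rule for named genes were chosen with earlier results of these data known. All 9 members were named in every library; from other lists at most 5 genes were named, those with the largest ratios whose intervals lay beyond 1.

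Nuclei under 200 genes or over 5% mitochondrial UMIs were dropped. Scrublet (expected rate 0.06) called 0 or 1 doublet per library at its own threshold and so had not worked; instead the nuclei with the highest scores, 0.8% per 1000 barcodes, were removed (69 to 249 per library). Clustering in scanpy 1.11.5 (2000 variable genes, 30 components, 15 neighbours, Leiden resolution 1) left out the 9 genes, the sterol and fatty acid lists, Apoe, mitochondrial and sex-linked genes. Classes were named from 18 marker sets with at least 3 markers 1.5-fold higher; 1 of 17 clusters, with neuronal genes, stayed unnamed and was counted with neurons. Levels are CPM, UMIs scaled to 1000000 per class and library. Intervals are exact Poisson or conditional binomial 95% intervals, and genes needed 20 UMIs over both libraries to be counted. Ratios were checked on simulated counts. The tools were igraph 0.11.9, scikit-learn 1.9.0, matplotlib 3.10.9, pandas 2.3.3, scipy 1.17.1, numpy 2.4.6 and Python 3.11.15. Alternatives covered filters, scaling, weighting, clustering, mixed nuclei and free RNA. Some genes that these rules name are not reported here.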

Additional observations from a re-analysis of the deposited data

Results flagged for a closer look

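Fdft1, which encodes squalene synthase, went opposite ways in the 2 backgrounds of a contrast, and none of these differences was tested, since each genotype has 1 library. In neurons its P301S/EKO over EKO ratio was 0.7541, against 1.207 in P301S over WT; the second value was 1.03 under median-of-ratios scaling. Its P301S/EKO over P301S ratio in neurons was 0.7268, against 1.163 in EKO over WT. Under median-of-ratios scaling these were 0.85 and 1.18. This pair is made from the same library levels as the pair before and is not a further instance. In inhibitory neuron-like nuclei the same ratios were 0.5425 in P301S/EKO over P301S and 1.63 in EKO over WT. EKO over WT was above 1 in 4 of 6 neuronal classes and below 1 in 2, with ratios of 0.95 to 1.63. Its interval lay above 1 in only 1 class. Over all nuclei the ratios of Fdft1 were 0.8733 in P301S/EKO over P301S and 1.17 in EKO over WT.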

How the results depend on the processing

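No paired analysis was possible because each genotype has 1 library. Of the recomputed sums and counts, 126 stayed within the spread allowed by counting or within 1.5 times for counts, 19 moved and 0 reversed. A reversal was counted only where the main interval did not take in 1. P301S/EKO over EKO, whose main intervals took in 1 in oligodendrocyte-like and microglia-like nuclei, did cross it. It was below 1 in both, but 1.07 in oligodendrocyte-like nuclei without mixed nuclei and 1.55 in microglia-like nuclei with free RNA subtracted. Of the single-gene values 360 stayed and 6 moved. With free RNA subtracted, the ratio of the sum was 0.237 (P301S over WT) and 1.32 (EKO over WT) in astrocyte-like nuclei and 0.396 (P301S over WT) in oligodendrocyte-like nuclei, and 1.55 (P301S/EKO over EKO) and 2.11 (P301S/EKO over P301S) in microglia-like nuclei. Without Msmo1 the EKO over WT ratio in astrocyte-like nuclei was 1.41. Without mixed nuclei the P301S/EKO over P301S ratio in oligodendrocyte-like nuclei was 2.15, with 14 UMIs in P301S. Under median-of-ratios scaling the ratios in neurons were 0.670 (P301S over WT) and 1.47 (P301S/EKO over P301S), and the count of members lower in P301S over WT was 5 in place of 3. Counts of members past 1.5-fold in astrocyte-like nuclei moved in 3 comparisons. For P301S/EKO over EKO the count of 4 became 2 with at least 1100 UMIs per nucleus, 2 with equal weight per nucleus and 1 without mixed nuclei. For EKO over WT the count of 4 became 1 with equal weight, 2 without mixed nuclei and 2 with free RNA subtracted. For P301S/EKO over P301S the count of 5 became 3 with at least 500 genes per nucleus, 3 with free RNA subtracted and 9 with a minimum of 1 UMI. The cause was not tested. The alternatives for neurons and microglia-like nuclei were chosen after seeing the data. Clustering each library alone gave no oligodendrocyte-like value in 3 comparisons, since no cluster of P301S or WT received that name. In each of these libraries a cluster with Mag and Cldn11 among its top genes stayed unnamed. It held 178 nuclei in P301S and 375 in WT. Single genes under 3 counts were not recomputed. Depth limits Lss, Nsdhl and Hsd17b7 outside neurons, and with 1 library per genotype, genotype and library cannot be told apart.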
